A study of Mus musculus with 10 samples.

Results

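5-Carboxylcytosine (5caC) was compared at single CG sites between mouse embryonic stem cells labelled Tdg and wild-type (wt) cells, both grown in serum. The sites were all CG positions that the authors' table gave for either group: 8685 in serum wt cells and 374488 in serum Tdg cells. Together these were 378443 of the 922427 positions in the whole table. The study had 10 samples in 5 groups. Both serum groups were kept without feeder cells on gelatin, in medium with 15% fetal bovine serum and 1000 units/ml of LIF, the cytokine that holds these cells in self-renewal. The serum-2i groups, wt and Tdg, also received 3 µM CHIR99021, a GSK3 inhibitor, and 1 µM PD0325901, a MEK inhibitor. They are used here for a few reference values. The Tdg label names a gene and does not state the alteration, the clone or the number of clones. The fifth group, DNA of cells without Tet enzymes, is not analysed here. Its label says that it was used in making the coverage table, in a way that is not stated. Each group was 2 technical replicates of 1 input, and the table gives their mean, so no spread between replicates or cultures could be measured. For that reason no p-value is given, and each difference is one between these libraries.

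TET enzymes oxidise 5-methylcytosine in steps to hydroxymethyl-, formyl- and carboxylcytosine. Thymine DNA glycosylase, the product of Tdg, cuts the formyl and carboxyl forms out of DNA, and base excision repair then puts an unmodified cytosine in their place. 5caC is therefore scarce in cells with an active glycosylase, and embryonic stem cells, which express TET enzymes, are a usual system for studying this turnover. In the assay used here, an engineered DNA methyltransferase replaced the carboxyl group with an azide tag, tagged fragments were pulled down, and sequencing was primed at the tagged base.

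The unit throughout is coverage, the number of reads assigned to a CG, as the mean of the 2 replicates. The sources do not say whether it was scaled to library depth. A listed site is a CG with an entry for the group. Listing began at a coverage of 3 in serum wt and of 6 in serum Tdg cells, so an unlisted CG has an unknown value and not a value of 0. Intervals in brackets are exact 95% Clopper-Pearson intervals. They cover counting error only, since reads from PCR without molecular identifiers are not independent molecules.

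Promoters were ranked by their number of CGs listed in both groups, with ties broken by summed coverage. Of the first 10, 3 had 2 such CGs and the others had 1. Another 3 of the 10, each with 1 shared CG, had their 250 upstream bases outside every annotated gene span. These are printed to show how listed CGs sit among unlisted ones. They are Krt8, which encodes an epithelial keratin (chr15:102004343-102004592, minus strand), Sycp3, which encodes a protein of the meiotic synaptonemal complex (chr10:88459337-88459586, plus strand), and Spag8, a sperm-associated antigen gene (chr4:43653595-43653844, minus strand). The sequences are from RefSeq, build GRCm38.p6, which has the same coordinates as the mm10 build of the study. They run 5′ to 3′ and end at the base before the transcription start. Capitals mark each CG listed in serum Tdg cells, and CGs in lower case were not listed there.
Krt8: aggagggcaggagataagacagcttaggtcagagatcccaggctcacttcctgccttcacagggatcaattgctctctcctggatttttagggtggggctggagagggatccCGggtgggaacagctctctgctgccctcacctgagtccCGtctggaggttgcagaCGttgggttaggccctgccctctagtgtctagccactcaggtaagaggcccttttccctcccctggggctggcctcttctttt
Sycp3: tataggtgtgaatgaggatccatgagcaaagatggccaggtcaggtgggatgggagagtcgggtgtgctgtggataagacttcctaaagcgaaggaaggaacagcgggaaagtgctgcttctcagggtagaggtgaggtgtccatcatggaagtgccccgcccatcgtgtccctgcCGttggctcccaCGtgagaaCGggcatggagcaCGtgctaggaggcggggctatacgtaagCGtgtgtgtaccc
Spag8: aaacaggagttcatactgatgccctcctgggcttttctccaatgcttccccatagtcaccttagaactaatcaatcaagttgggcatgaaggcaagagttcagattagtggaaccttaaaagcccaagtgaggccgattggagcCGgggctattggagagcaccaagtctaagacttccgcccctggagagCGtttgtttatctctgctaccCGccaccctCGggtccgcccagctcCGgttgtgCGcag

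At Krt8, all 3 upstream CGs were listed in serum Tdg cells, and the middle one, 100 bases before the start, had a coverage of 154 there and of 9 in serum wt cells. The CGs 83 and 138 bases before the start had coverages of 43.5 and 40 in serum Tdg cells and were not listed in wt cells. At Sycp3, 5 of 12 upstream CGs were listed in serum Tdg cells. The one shared with serum wt cells lay 62 bases before the start, with a coverage of 5 in wt and 64 in Tdg cells. Its neighbours 74 and 54 bases before the start reached 112.5 and 103 in Tdg cells without a wt entry. At Spag8, 6 of 9 upstream CGs were listed in Tdg cells. The shared one, 38 bases before the start, had a coverage of 4 in wt and 67.5 in Tdg cells. At Sycp3 and Spag8 the shared CG was not the one with the highest coverage in Tdg cells. The promoters were chosen for a shared CG and then by coverage, so a shared CG among many Tdg sites follows from the choice. Over all promoter windows 102 of 175 wt CGs were shared.

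The other 7 promoters ranged from dense to sparse. At a start of Lbhd2 (chr12), 10 of the 12 CGs in the 300-base window were listed in Tdg cells, and 2 of them in wt cells. Those 2 had coverages of 5.5 and 3.5 in wt and of 92 and 80.5 in Tdg cells. At a start of Nfix (chr8), which encodes a nuclear factor I transcription factor, 1 of 7 listed CGs was shared, with 6 in wt and 27.5 in Tdg cells. A CG of the same window, 228 bases before the start, had 190.5 in Tdg cells and no wt entry. Prkar1b (chr5) and Egfl7 (chr2) had no CG of Tdg cells alone: 2 of 37 and 2 of 8 CGs were listed, the same in both groups. At Egfl7 their coverages were 4 and 6 in wt and 12.5 and 22.5 in Tdg cells.

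The excess in Tdg cells was one of many more sites and of higher coverage at each site. Serum wt cells had 8685 listed sites with a summed coverage of 43172, and serum Tdg cells 374488 sites with a summed coverage of 7486660. The number of sites differed 43.1-fold and the summed coverage 173-fold. Median coverage of a listed site was 4.5 in wt cells (quartiles 3.5 and 5.5) and 14.5 in Tdg cells (quartiles 10 and 23.5). The highest values were 70.5 and 297.5. A coverage above 20 was reached by 9 sites in wt cells and by 31.1% of the sites in Tdg cells. Because 76.9% of the wt sites lay below the minimum of the Tdg listing, the ratio grew with a common minimum, to 187 times as many sites from a coverage of 6 and 1185 times from a coverage of 10. In serum-2i the number of sites differed 6.22-fold between Tdg and wt cells. Read numbers per library are not part of the sources, so depth and amount of 5caC cannot be told apart in these ratios.

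The sites of wt cells were partly those of Tdg cells. Of the 8685 sites in wt cells, 4730 were also listed in serum Tdg cells, which is 54.5% (53.4 to 55.5). These were 1.26% (1.23 to 1.30) of the sites in Tdg cells. In serum-2i, 49.1% of the wt sites were also listed in Tdg cells. Of the serum wt sites, 46.0% had an entry for serum-2i Tdg cells and 11.4% for serum-2i wt cells. A total of 2964 wt sites (34.1%) were listed in no other group, 1521 in serum Tdg cells alone, and 2511 in both Tdg groups but not in serum-2i wt cells.

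Whether a Tdg site was listed in wt cells varied with its coverage in Tdg cells. The share was 0.579% (0.514 to 0.650) for Tdg sites with a coverage of 6 to 8 and 1.37% (1.28 to 1.47) for those of 20.5 to 30. It reached 6.02% (5.05 to 7.11) at 100.5 to 150 and 13.3% (10.2 to 16.9; 57 of 429 sites) at 150.5 or more. The reverse share varied little. Of wt sites with a coverage of 3, 50.1% (46.9 to 53.2) were listed in Tdg cells. For those of 5.5 to 6 the share was 58.3% (55.5 to 61.0), and above 15 it was 55.6% (35.3 to 74.5; 15 of 27 sites). Among the 30 sites with the highest coverage in Tdg cells, examples with a wt entry were in Msi1, which encodes an RNA-binding protein of neural progenitors (297.5 in Tdg, 8.5 in wt), and Adam11 (253 in Tdg, 5.5 in wt). The site of highest coverage in Gse1 had 273 in Tdg cells and no wt entry, and one in Cbx7, a gene of the Polycomb repressive complex 1, had 236.5 without a wt entry.

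**Figure D1:**
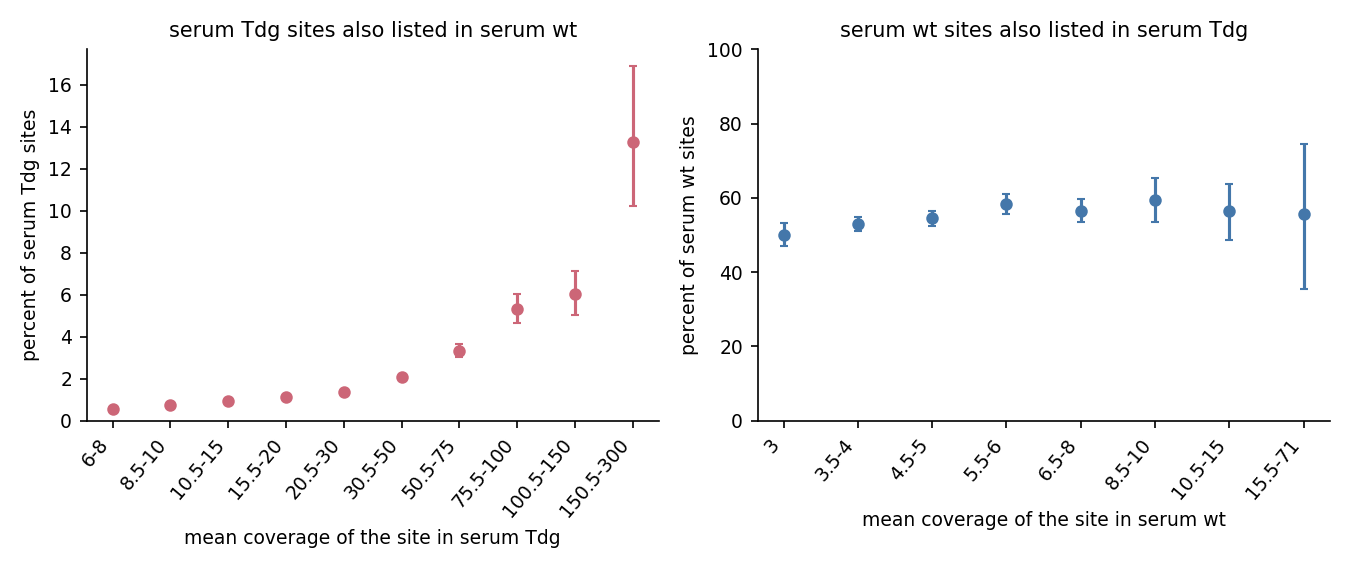
Share of listed sites also listed in the other serum group, by the site's own mean coverage; the left panel has serum Tdg sites and the right panel serum wt sites. Points are percentages and bars are exact 95% intervals for counting error. The left-hand share goes from 0.579% to 13.3% with coverage, while the right-hand share lies between 50.1% and 59.4% in every class.

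At the 4730 shared CGs the coverage was higher in Tdg cells at 4657 (98.5%), equal at 10 and higher in wt cells at 63. Median coverage was 4.5 in wt cells and 21 in Tdg cells (quartiles 12.5 and 40.5). The median ratio was 4.63 (quartiles 2.73 and 8.86, maximum 74), a log2 ratio of 2.21. Tdg cells had at least 4 times the wt coverage at 2715 sites (57.4%) and at least 10 times at 987 (20.9%). In serum-2i the median ratio at shared sites was 2.30. The direction is partly set by listing, since a Tdg value began at 6 and a wt value at 3. With a common minimum of 10 the median log2 ratio was 1.10. Shared sites had a higher coverage in Tdg cells (median 21) than Tdg sites absent from the wt listing (median 14.5), whereas in wt cells both kinds had a median of 4.5. Across the shared sites the coverages of the 2 groups had a low correlation (Spearman's rho 0.0704, Pearson's r 0.108 over 4730 sites), as a description over sites that share libraries. The wt coverages there had quartiles of 3.5 and 5.5, close to the listing minimum of 3, which left little range for a correlation.

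The 3955 wt sites not listed in Tdg cells often lay close to a site that was. Their median distance to the nearest serum Tdg site was 377 bases, with 29.8% (28.4 to 31.3) within 100 bases and 64.0% (62.5 to 65.5) within 1000 bases. Sites of Tdg cells formed runs: 61.5% had another Tdg site within 100 bases, and 86.0% within 1000 bases. In wt cells 5.53% of sites had another wt site within 100 bases and 14.2% within 1000 bases. These percentages fall with the number of sites, so the spacing of the groups is given as it was listed and not compared at equal numbers.

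The place of sites relative to genes differed little between the groups. Sites inside the span of a protein-coding gene were 58.6% (57.6 to 59.6) of wt and 59.2% (59.1 to 59.4) of Tdg sites. Sites within 1 kb of either end of such a span were 13.8% (13.0 to 14.5) of wt and 12.4% (12.3 to 12.5) of Tdg sites. Among wt sites the share was 16.0% (14.8 to 17.1) where the CG was not listed in Tdg cells and 11.9% (11.0 to 12.9) where it was. In serum-2i the shares near span ends were 5.22% in wt and 5.41% in Tdg cells. Coverage moved with this measure in Tdg cells, since sites with a coverage above 50 had a share of 10.3% (9.88 to 10.7).

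Around transcription starts both groups peaked within 500 bases of the start. The starts used were 21019 of 17273 protein-coding genes on 19 chromosomes. None lay on chromosome 18, so its 211 wt and 10199 Tdg sites were left out. The percentages around starts are of the other 8474 wt and 364289 Tdg sites. Within 250 bases of a start lay 2.54% (2.21 to 2.89) of wt and 2.97% (2.91 to 3.02) of Tdg sites. From 250 to 2000 bases upstream lay 5.30% (4.83 to 5.80) of wt and 4.30% (4.24 to 4.37) of Tdg sites. The matching downstream stretch held 6.07% (5.57 to 6.60) of wt and 5.36% (5.28 to 5.43) of Tdg sites. Wt sites were thus a little less frequent at the start itself and more frequent in its flanks, by amounts outside the counting intervals.

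**Figure D2:**
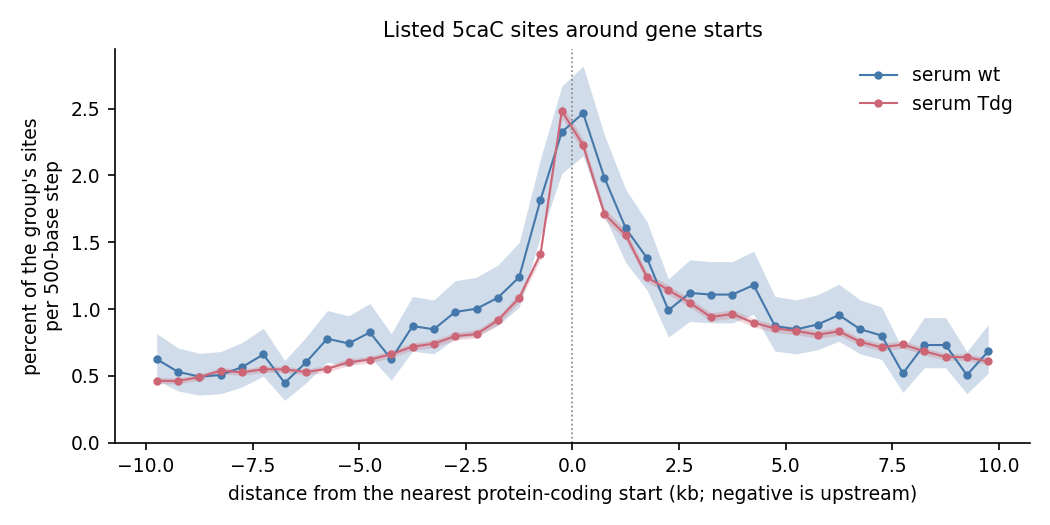
Percent of each serum group's listed sites, without chromosome 18, in 500-base steps around the nearest protein-coding transcription start (distance in kb, negative is upstream). Lines with points are serum wt and serum Tdg, and bands are exact 95% intervals for counting error; both groups peak at the start, with 2.54% of wt and 2.97% of Tdg sites within 250 bases of it.

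Promoter windows allowed sites to be set against the CGs that could have been listed. The 29800 windows of 300 bases (250 before and 50 after each start) held 360715 CGs, of which 175 (0.0485%) were listed in wt and 10443 (2.90%) in Tdg cells, with 102 in both. The share of listed CGs was highest in windows of intermediate CG number. In Tdg cells it was 2.30% in windows of 1 to 2 CGs, 9.37% (8.97 to 9.79) in those of 8 to 10 CGs, and 0.327% (0.294 to 0.361) in those of 31 to 67 CGs. Wt cells had their highest share in the same class, 0.142% (0.0943 to 0.205), against 0.0362% (0.00746 to 0.106) in windows of 1 to 2 CGs and 0.0122% (0.00667 to 0.0205) in those of 31 to 67 CGs. In wt cells the intervals of all classes up to 15 CGs overlapped that of 8 to 10 CGs, while those of 16 CGs and more lay below it. The wt shares rest on 3 of 8297 CGs in windows of 1 to 2 CGs and 28 of 19741 in those of 8 to 10. Whether the wt share rose from CG-poor windows was not tested. CG-rich promoters, most of which are unmethylated CpG islands in these cells, thus had a low share of their CGs listed in either group.

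Wt sites in CG-rich promoter windows were less often shared, in windows where fewer CGs were listed in Tdg cells. In windows of 1 to 15 CGs, 87 of 118 wt CGs were listed in Tdg cells, or 73.7% (64.8 to 81.4). In windows of 16 to 67 CGs this held for 15 of 57, or 26.3% (15.5 to 39.7). Of all CGs in these 2 classes, 6.95% and 1.33% were listed in Tdg cells. The lower sharing thus went along with a lower Tdg listing, and the part of that listing was not tested. Median wt coverage was 4.5 in both classes, and median Tdg coverage was 15.5 and 12.5. Within windows of 5 to 15 CGs the share listed in Tdg cells also varied with the flanking bases, each context counted with its reverse complement. It was 14.8% (14.0 to 15.6) of CGs with a C before and a G after, and 2.26% (1.91 to 2.66) of those with a G before and a C after. In wt cells the same contexts had 19 of 7786 and 5 of 6288 CGs listed.

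**Figure D3:**
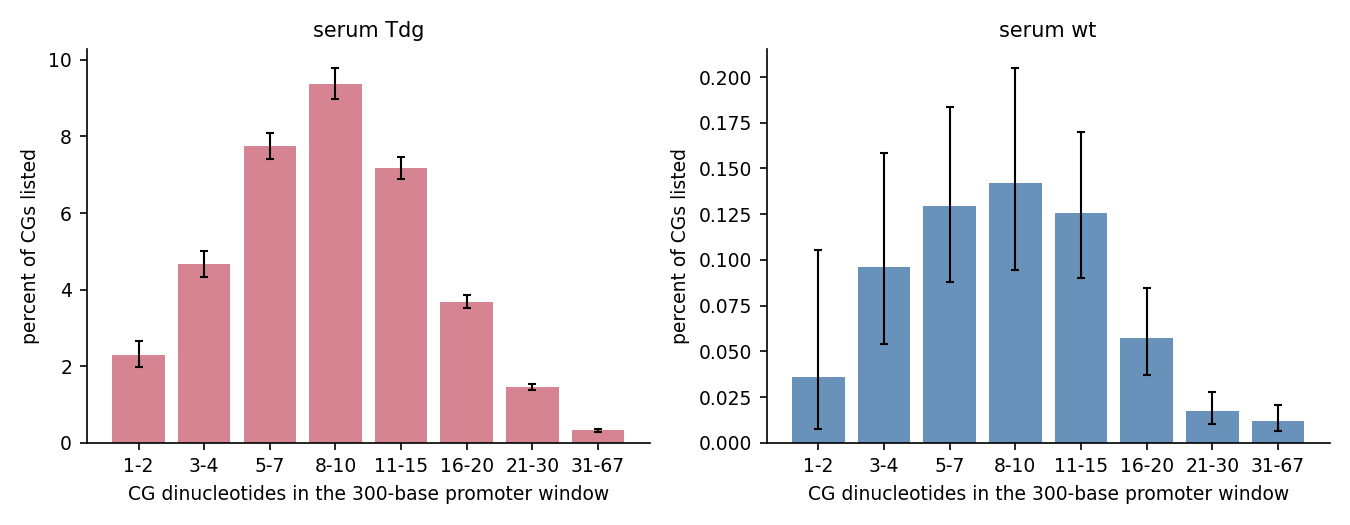
Percent of CG dinucleotides in RefSeq promoter windows that were listed in serum Tdg (left) and serum wt cells (right), by the number of CGs in the 300-base window. Bars are percentages from 0 with exact 95% intervals for counting error, on axes of different scale; both groups are highest at 8 to 10 CGs, with 9.37% and 0.142%.

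Of 21627 protein-coding genes, 66.5% had at least 1 site in Tdg cells and 15.5% in wt cells. A site in both groups was found in 3267 genes, in Tdg cells alone in 11120, in wt cells alone in 85, and in neither in 7155. Of the genes with a wt site, 97.5% also had a Tdg site. The share of genes with a wt site followed the number of Tdg sites. It was 1.17% (0.939 to 1.45) for genes without a Tdg site, 7.02% for those with 1 to 4, 43.0% for those with 20 to 49, and 87.8% (82.3 to 92.0) for those with 100 to 199. All 26 genes with 200 or more Tdg sites had a wt site. Gene length moved with this order, since the median span was 6.04 kb in the first of these classes and 157 kb in the last, and its part was not tested.

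**Figure D4:**
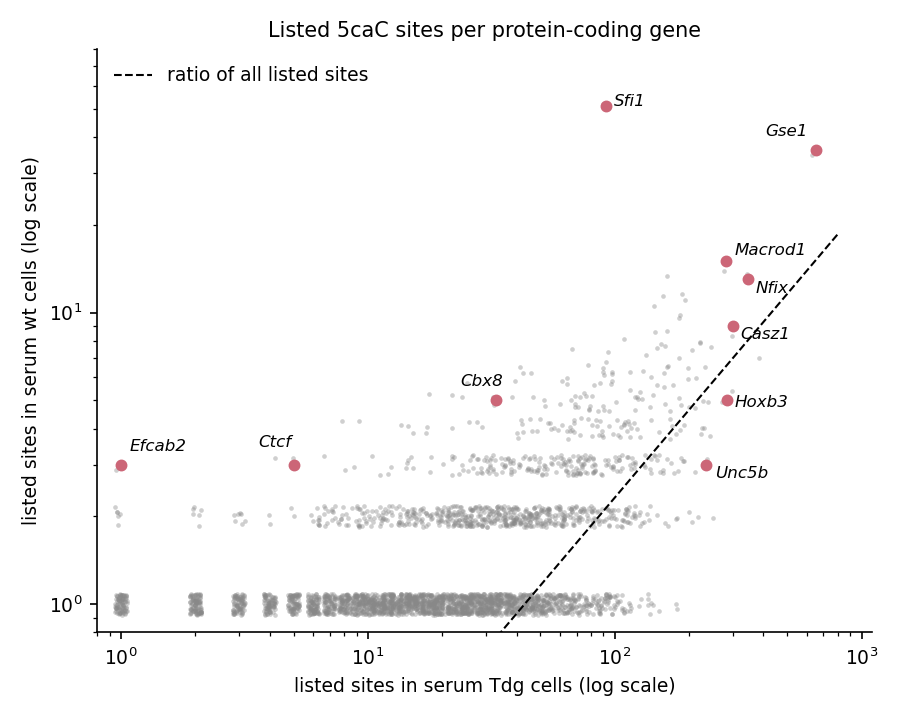
Listed 5caC sites per protein-coding gene in serum Tdg (horizontal) and serum wt cells (vertical), both on log axes, for genes with at least 1 site in each group; points are moved slightly at random to separate them and named genes are in red. The dashed line is the ratio of all listed sites, 43.1, and Sfi1, with 51 wt and 92 Tdg sites, has the most wt sites.

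Sfi1 had by far the most wt sites of any gene. It encodes a centrosomal protein and spans chr11:3131850-3203347. It had 51 sites with a summed coverage of 587 in wt cells and 92 sites with a summed coverage of 2991 in Tdg cells, 28 of them shared. The ratio of sites was 1.80, against 43.1 over all sites. Of the 27 wt sites with a coverage above 15, 8 lay in Sfi1, among them both of the highest, at chr11:3146979 (70.5 in wt, 149 in Tdg) and chr11:3182093 (57.5 in wt, 121 in Tdg). In serum-2i the gene had 89 wt and 131 Tdg sites, so it stood high in wt cells of both media. The sources do not say how reads matching several places were assigned, so these values are uncertain if the region has near-identical copies.

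The next genes by wt sites also had many Tdg sites, in spans from 35.7 kb in Nfic to 353 kb in Gse1. Gse1 (chr8:120228501-120581383), which encodes a coiled-coil protein found with histone demethylase complexes, had 36 wt and 655 Tdg sites, 21 shared. Macrod1, a mono-ADP-ribosyl hydrolase gene, had 15 wt and 283 Tdg sites, 13 shared. Nfic and Nfix, both of the nuclear factor I family, had 13 wt sites each. In Nfic 12 of them were shared with its 162 Tdg sites, and in Nfix 10 were shared with its 346. Arhgap23, Srcin1 and Dlgap4 had 11 wt sites each and 158, 177 and 199 Tdg sites. Zmiz1 and Nol4l had 10 wt sites each, and Zfp423 and Casz1, both zinc-finger transcription factor genes, had 9 each. Casz1 had 300 Tdg sites and shared 8 of its 9 wt sites.

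The genes with the most Tdg sites and no wt site were Plec with 187, Trio with 163, Kifc3 with 147, Tsc22d1 with 139, Dlgap3 with 138, Tbx15 with 136, Foxp1 with 135, Zfp536 with 130, Smad6 with 124, Ccdc88c with 123, and Ksr1 and Stox2 with 122 each. Plec encodes the cytoskeletal linker plectin, Trio a guanine nucleotide exchange factor, and Foxp1, Tbx15 and Zfp536 transcription factors. At the overall ratio of sites these counts correspond to 4.34 wt sites in Plec and 2.83 in Ksr1 and Stox2, so at this depth the lack of a wt entry is a small difference in number. Conversely, the genes with the most wt sites and no Tdg site had 2 at most. Cdh7, a cadherin gene, Prcp, Acyp2 and Dnm1l, which encodes the mitochondrial fission GTPase, had 2 each. Sec61b, Edc3, Gzf1, Lsm8, Pdzph1 and Acsm1 had 1 each.

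To compare genes within a group, each gene's share of the summed listed coverage was taken, and the log2 ratio of shares, Tdg over wt, was called at a 2-fold difference with an interval that left out 0. A gene needed a site in both groups and a mean summed coverage of at least 20. A site in overlapping spans counted for each of its genes, here and in the counts of sites per gene. Of 3751 genes kept, 134 had a higher share in Tdg cells (3.57%) and 2108 a lower share (56.2%). Of 3095 protein-coding genes among them, 120 were higher (3.88%) and 1683 lower (54.4%), with a median log2 ratio of -1.22. Of the kept genes 70.0% had a single wt site, and the 11120 protein-coding genes with sites in Tdg cells alone had no ratio. Among kept protein-coding genes the median was -1.04 from at least 3 wt sites and -1.06 from at least 10. The cause of the excess of lower shares was not tested. When each group was scaled to its summed coverage at the shared positions, the median of all kept genes moved from -1.31 to 3.45, with 3498 genes higher and 15 lower, and by the median ratio of genes it moved to 0, with 889 higher and 917 lower. A lower share is therefore a statement about a gene's rank within its group and not about less 5caC in Tdg cells. Each of these scalings adds a constant, the same for every gene and list, and on shared positions it is 4.75. A change of sign under them follows by construction and says nothing about a single gene or list.

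The following genes were chosen by their ratio, so their values are a description. Among the 388 kept protein-coding genes with at least 3 wt sites, 1 had a higher share by the call and 202 a lower one. The one was Ahdc1, with 3 wt sites (coverage 12.5) and 179 Tdg sites (coverage 4517), at a log2 ratio of 1.06 (0.50 to 1.69). It lost this call without the 1% of positions with the highest coverage, at 0.95, and by number of sites, at 0.47 (-1.10 to 2.76), while Anks1 gained one in the first case, at 1.60. The next in order were Anks1 at 0.94, Unc5b, a netrin receptor gene, at 0.94, Cacna1a, a calcium channel gene, at 0.82, and Igsf21 at 0.77. Then came Hoxb3 at 0.73 with 5 wt sites, all shared, and 284 Tdg sites. Kdm2b stood at 0.71, Rreb1 at 0.70, Cdh22 at 0.63 and Gata4 at 0.61. All wt sites of Kdm2b also lay in the span of another gene. The intervals of these 10 genes overlapped, so their order is not resolved.

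At the low end of the same genes, Efcab2 had 3 wt sites and 1 Tdg site, with summed coverages of 17 and 14.5, too little coverage to be kept. Ghr, the growth hormone receptor gene, had 3 wt and 4 Tdg sites, with coverages of 22.5 and 43.5 and a log2 ratio of shares of -6.49 (-7.02 to -5.93). Ctcf, which encodes the insulator-binding protein, had 3 wt and 5 Tdg sites, none shared, with coverages of 15 and 40 and a ratio of -6.02 (-6.64 to -5.37). Eif4h, Sfi1, Tnfsf11, Hps5, Pcyt2, Morc1 and Usp24 followed, from -5.09 to -3.85. In each of these genes other than Sfi1 the wt sites numbered 3 or 4, so a single listed CG weighs heavily. All wt sites of Morc1 also lay in the span of another gene.

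The pathway that makes and removes 5caC was described gene by gene. Its 23 genes had 10 wt and 461 Tdg sites, 3 shared, and summed coverages of 59 and 9244. The list's log2 ratio of shares was -0.15 (-0.41 to 0.13). Of 7 genes kept, 1 had a higher and 3 a lower share, against 3.88% and 54.4% of all kept protein-coding genes. Only genes with a wt site were kept, so these shares also depend on the number of Tdg sites per gene. Another 13 genes had sites in Tdg cells alone. Of the TET enzyme genes, Tet1 had no wt and 28 Tdg sites, Tet2 had 2 and 32, and Tet3 had 2 and 84. Coverage of Tet2 was 18.5 in wt and 630 in Tdg cells, a lower share by -2.35 (-2.82 to -1.84), and that of Tet3 was 11.5 and 1915.5, at -0.06 (-0.65 to 0.60). The call of Tet2 was lost without the 1% of positions with the highest coverage, at -0.33 (-1.26 to 0.80). By number of sites its interval also included 0. With the constant added on shared positions it was 2.41. Tdg itself (chr10:82629814-82650799) had 3 sites with a summed coverage of 30 in Tdg cells and no wt site, which does not test the alteration.

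Of the methyltransferase genes, Dnmt1, the maintenance enzyme, had 1 wt and 44 Tdg sites and a log2 ratio of 0.54 (-0.51 to 1.85). Dnmt3a, a de novo enzyme, had 1 wt site with a coverage of 5.5 and 129 Tdg sites with a summed coverage of 2614.5, a higher share at 1.45 (0.61 to 2.46). This call rests on the 1 wt site, and by number of sites the interval was -0.92 to 6.90. Dnmt3b had 1 and 11 sites, at -2.66, and Dnmt3l, the cofactor without catalytic activity, had 2 and 31, at -1.80. With the constant added on shared positions these were 2.09 and 2.95, and by number of sites both intervals included 0. Dnmt3l also lost its call when sites in several spans were left out, at -0.91 (-1.96 to 0.41), and under median-ratio scaling, at -0.49. Uhrf1, which recruits Dnmt1 to newly replicated DNA, had 13 Tdg sites and its relative Uhrf2 had 1, both without a wt site. Of the repair genes, Smug1, a uracil glycosylase gene, had 1 wt and 24 Tdg sites (0.18). Parp1 had 16, Xrcc1 12, Ung 11, Neil2 7, Gadd45b 6, Lig3 4, Neil1 3 and Apex1 and Polb 1 Tdg site each, all without a wt site. Mbd4, Neil3 and Gadd45a had no site in either serum group.

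Lineage regulators with bivalent promoters, which carry both active and Polycomb-type histone marks in stem cells, formed the largest block of sites among the lists. All 46 genes had Tdg sites, 2495 in all, and 17 had wt sites, 42 in all, of which 33 were shared. Summed coverage was 214.5 in wt and 55439 in Tdg cells. The list's share was 0.666% of Tdg and 0.484% of wt sites, and its log2 ratio of coverage shares was 0.58 (0.44 to 0.72). The list's ratio was 0.46 by number of sites and 0.47 at a common minimum of 6. The other scalings add a positive constant to every ratio. A positive value there, such as 5.33 on shared positions, follows by construction. In serum-2i the ratio was 0.62 (0.54 to 0.70), with 84 wt and 772 Tdg sites, so the number of Tdg sites was lower there while the ratio was close.

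Within this list, 17 genes were kept, of which 3 had a higher and 1 a lower share, against 3.88% and 54.4% of all kept protein-coding genes. Their median log2 ratio was -0.18, against -1.22. Only genes with a wt site were kept, so a kept gene with few Tdg sites has a low ratio by construction. Among all kept protein-coding genes the median was -1.94 in spans under 10 kb, with 74.5% lower. From 100 kb it was -0.74, with 41.1% lower. The bivalent list had a median span of 6.11 kb and the most Tdg sites per kb of all lists, 2.89. The part of this filter in the list's difference from all kept genes was not tested. Lhx2 (2.42), Pax3 (1.36) and Pax6 (1.10), all transcription factors of neural or neural-crest development, had 1 wt site each, against 139, 102 and 101 Tdg sites. By number of sites, 0 of all genes had a higher share, so these calls rest on coverage and on 1 wt site each. Tbx1 was lower at -1.04 with 3 wt and 76 Tdg sites, or 3.71 with the constant added on shared positions. Hoxd3 had the most wt sites, 8, all shared with its 229 Tdg sites. Tbx5 shared all of its 5 wt sites and Pax2 all of its 4, with 185 and 194 Tdg sites. Pax7 had 4 wt and 171 Tdg sites and shared 1. Lhx5 had 2 and 52. Gata4, Gata2 and Gata3, zinc-finger regulators of endoderm, heart and blood fates, had 193, 94 and 76 Tdg sites and 3, 3 and 2 wt sites. The 2 wt sites of Gata3 also lay in the span of another gene. Nkx2-2 with 96 and Wt1 with 83 Tdg sites led the genes without a wt site. Neurog1, Neurog2 and Olig2, neural determination genes, were at the other end with 3, 3 and 2 Tdg sites. In Hox clusters spans overlap, so a site of a list member can also lie in the span of a gene outside the list. The list's sums count each site once. With sites in several spans left out the list's ratio was 0.75.

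Polycomb genes had 19 wt and 818 Tdg sites, 13 shared, and a log2 ratio of 0.36 (0.14 to 0.58). This was -0.0022 by number of sites and 0.09 at a common minimum of 6, both with intervals that included 0. Bcor, a subunit of a variant Polycomb complex, had 4 wt and 241 Tdg sites, and Kdm2b, which brings that complex to CpG islands, had 3 and 138. The 3 wt sites of Kdm2b also lay in the span of another gene. Cbx7 had 1 wt and 91 Tdg sites, a higher share at 2.45 that was not called by number of sites (-1.44 to 6.40). Cbx8, another chromodomain subunit gene, had 5 wt sites, all shared with its 33 Tdg sites, a lower share at -2.52. With the constant added on shared positions it was 2.23. Of the catalytic core, Ezh2 had 0 wt and 2 Tdg sites, Suz12 1 and 1, and Eed 1 and 9, with 0 shared in each. Of 8 genes kept, 1 was higher and 3 lower, beside 3.88% and 54.4% of all kept protein-coding genes. Only genes with a wt site were kept, so these shares also depend on the number of Tdg sites per gene.

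Most sites of the pluripotency genes lay in a few of them. The 20 naive genes had 9 wt and 365 Tdg sites at a log2 ratio of 0.11 (-0.22 to 0.46). Of these Tdg sites 144 lay in Esrrb, a nuclear receptor gene, which also had 4 wt sites. Lifr, a LIF receptor subunit gene, had 1 and 50, Klf4 0 and 37, and Tbx3 2 and 36. Nanog had 2 Tdg sites and Zfp42 3, neither with a wt site. Nr0b1 and Fgf4 had no site in either group. The 13 general genes had 1 wt and 89 Tdg sites, 33 of them in Sall4, 14 each in Lefty1 and Nodal and 8 in Pou5f1. In Lefty1, 2 of the 14 lay in no other gene's span. The log2 ratio of the general genes was 1.02 (0.18 to 2.03). It rests on 1 wt site, in Utf1, which had no Tdg site, and by number of sites its interval included 0. The 14 primed genes had 5 wt and 362 Tdg sites at 0.49 (0.12 to 0.89), and Foxp1, Etv5 and Lef1 held 135, 74 and 68 of the Tdg sites. Etv4 had 2 wt and 19 Tdg sites. This ratio went to -0.38 at a common minimum of 6.

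Of the signalling lists, WNT pathway genes had 12 wt and 693 Tdg sites at 0.40 (0.15 to 0.67), and all 20 had a Tdg site. By number of sites the value was 0.42 (-0.39 to 1.38), and the median of the 6 kept members was -0.48. Tcf7l1, the repressor of WNT targets in stem cells, had 5 wt and 143 Tdg sites, Wnt3 0 and 98, Tcf7l2 2 and 90, and Rnf43, a receptor-degrading ligase gene, 1 and 83. Axin2 had 2 wt and 42 Tdg sites, and Ctnnb1, which encodes beta-catenin, 1 and 3. FGF and ERK pathway genes had 11 wt and 508 Tdg sites at 0.16 (-0.11 to 0.43), led by Fgfr1 with 4 and 109. Of these 109, 38 lay in no other gene's span. Fgfr2 and Fgf8 had 62 and 40 Tdg sites without a wt site, and Fosl1 had 2 wt and 27 Tdg sites. Extraembryonic genes had 9 and 589 sites at 0.23 (-0.04 to 0.51). In that list Col4a2 had 49 Tdg sites and no wt site. Hand1 had 2 wt and 46 Tdg sites and Tfap2c 2 and 36, both lower shares (-1.11 and -2.61). With the constant added on shared positions they were 3.64 and 2.14.

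The remaining lists were small in wt cells. Imprinted genes had 4 wt sites, all in Igf2, and 216 Tdg sites. Igf2 had 47 of these, 3 shared, and a ratio of -1.69, or 3.06 with the constant added on shared positions. Gnas, Airn and Dlk1 had 29, 28 and 24 Tdg sites without a wt site. In Gnas 13 and in Airn 8 of the Tdg sites lay in no other gene's span. Germline genes that methylation silences in somatic cells had 87 Tdg sites inside the spans of 17 of 19 genes and no wt site there, with a mean coverage of 13.1 per Tdg site, the lowest of the 14 lists. The wt site before the start of Sycp3 lies outside its span, as do all 5 Tdg sites there, with coverages from 25 to 112.5. Such upstream promoter sites do not enter the span counts or the mean of 13.1. Piwil2 led the germline genes with 16 Tdg sites, followed by Asz1 and Sycp3 with 9 each and Tdrd1 with 7. Neural markers had 9 wt and 367 Tdg sites at -0.50 (-0.77 to -0.21), a ratio of 0.81 under median-ratio scaling and of 4.25 on shared positions. Rbfox3 held 8 of these wt and 210 of these Tdg sites. Gad1, Ncam1 and Gfap had 52, 30 and 15 Tdg sites without a wt site. Housekeeping genes had 3 wt and 47 Tdg sites at -1.15 (-1.69 to -0.56), or 3.60 on shared positions, and Eno1 held 2 of the wt sites. Pkm, Tpi1 and Aldoa led in Tdg sites with 13, 11 and 7. Fibroblast markers had 77 Tdg sites in 8 of 10 genes, led by Col1a1 with 21, Fn1 with 18, Thy1 with 12 and Prrx1 with 11, and no wt site. 5caC in DNA does not give expression, so none of these lists checks the cell type.

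**Figure D5:**
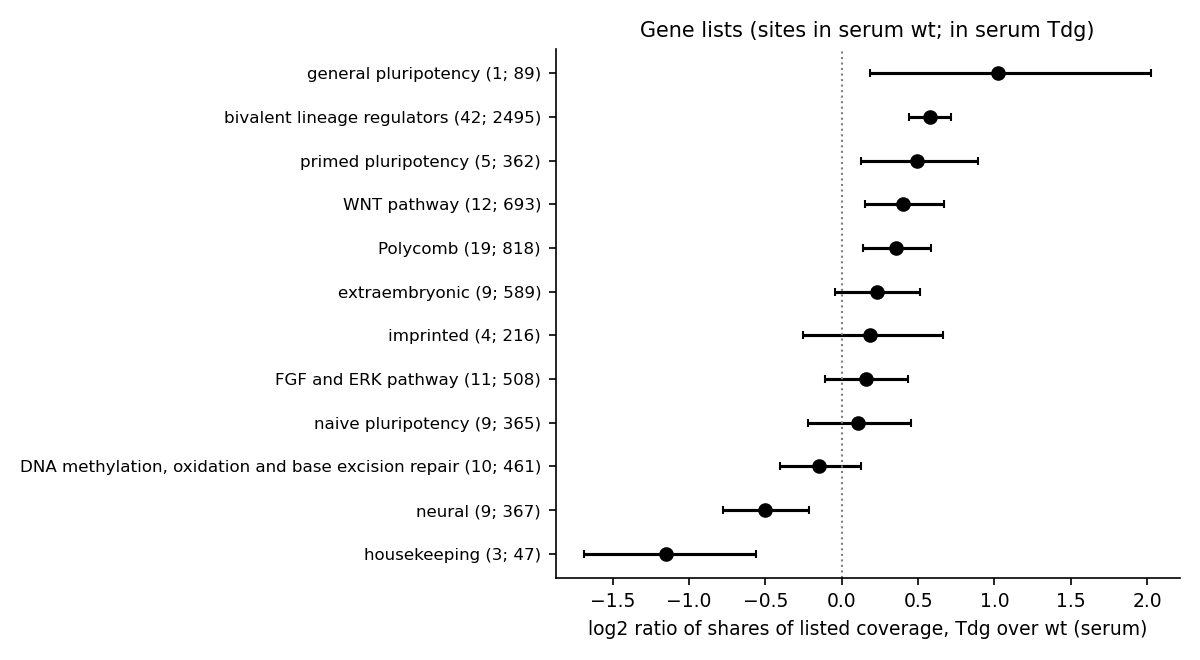
Log2 ratio of each gene list's share of summed listed coverage, serum Tdg over serum wt, with exact 95% intervals for counting error; the numbers in brackets are sites in wt and in Tdg cells, and 2 lists without a wt site are left out. The bivalent list stands at 0.58 with the narrowest interval. Median-ratio scaling and scaling on shared positions each add a constant, the same for every list. They put the neural list, at -0.50, at 0.81 and 4.25, and the housekeeping list, at -1.15, at 0.16 and 3.60.

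In 100 kb windows, which do not depend on gene annotation, 309 of 4049 kept windows had a higher share in Tdg cells (7.63%) and 1594 a lower share (39.4%). With at least 3 wt sites, the highest window was part of the Hoxc cluster (chr15:102900001-103000000, with Hoxc6 and 6 other Hoxc genes) with 6 wt and 469 Tdg sites, at 1.47 (1.07 to 1.90). The window with Tbx3 (chr5:119600001-119700000) followed with 3 and 232, at 1.34 (0.74 to 2.02). Windows with many Tdg sites and no wt site held Flnc (170 sites), Tbx15 (169), Wt1 (140) and En1 (139). The window with most wt sites, 59, was that of Sfi1, and the next, with 19 each, held Nfic, Srcin1 with part of Arhgap23, and part of Gse1.

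Chromosomes differed modestly. The ratio of Tdg to wt sites ran from 33.5 on chromosome 11 to 69.6 on chromosome X, where there were 40 wt and 2785 Tdg sites. By log2 ratio of coverage shares, chromosome 11 was lowest at -0.39 and chromosome 3 highest at 0.26. Chromosome X stood at 0.22 (0.086 to 0.36). On chromosome X 11 of the 40 wt sites were shared (27.5%), and on chromosome 4 the share was 60.3%. Mean coverage of Tdg sites was 15.6 on chromosome X and between 18.7 and 21.0 on the autosomes.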

How the data were processed

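Group means of 5caC coverage were compared between serum Tdg and serum wt cells. The authors deposited 1 table with a coverage signal for each listed CG position and group. All of its values were multiples of 0.5 and were read as the mean of 2 technical replicates. Per the submitters' processing notes the build was mm10. Not given in the sources used here: aligner, site caller, scaling of the coverage and rule for listing. Every promoter position matched the C of a CG only when the deposited positions were read as counted from 0, so they are printed counted from 1.

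Sites were placed on RefSeq gene spans and promoter windows (GRCm38.p6) with Python 3.11.15, numpy 2.4.6, pandas 2.3.3 and scipy 1.17.1. The interval of a log2 ratio of shares was an exact conditional Clopper-Pearson interval on coverage summed over the replicates. The ratio was checked on simulated counts per gene with known changes. The simulation had no listing minimum for a CG, so it checks the calculation and not the calls that rest on few wt sites. Depth is known only as summed listed coverage. A count model with replicates had been an option in the plan and was not run, since there is 1 value per group.

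The comparison and the 14 gene lists (270 symbols, all matched) were chosen with earlier results of these data known. The text names all genes of methylation and repair, the 12 protein-coding genes with most wt sites and the 12 with most Tdg sites and no wt site. It also names the 10 highest and 10 lowest ratios from 3 wt sites, the 10 genes with most wt sites and no Tdg site, and promoters among the 10 with most CGs listed in both. Ties were broken by summed coverage. Of each other list the 4 members with most Tdg sites, and those with 2 or more wt sites, are named, except 1 gene that is not reported here. Predicted genes were counted and not named. Other members named in the text were chosen after their values were seen.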

Additional observations from a re-analysis of the deposited data

Results flagged for a closer look

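For 3 gene lists the log2 ratio of coverage shares, Tdg over wt, lay on opposite sides of 0 in serum and in serum-2i, with counting intervals that left out 0 in both media. Primed pluripotency genes stood at 0.49 in serum and at -0.14 in serum-2i, on 5 and 112 wt sites. WNT pathway genes stood at 0.40 in serum and at -0.087 in serum-2i, on 12 and 208 wt sites. Neural markers stood at -0.50 in serum and at 0.12 in serum-2i, on 9 and 70 wt sites. The medians of the members compared lay below 0 in both media, at -2.53 and -0.07 for primed, -0.48 and -0.04 for WNT and -2.01 and -0.09 for neural genes. In serum the primed ratio was -0.38 at a common minimum coverage of 6, and the neural ratio was 0.81 under median-ratio scaling. The difference between the media was not tested in any of them, since each group has 1 value.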

How the results depend on the processing

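No paired analysis was possible because the table gives 1 mean per group and no value per replicate. For the same reason leaving out a replicate and a fit with a replicate block were not run. Where a setting left no value in a group, none is given.

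The excess of sites and of coverage at shared sites kept its direction under each setting run. With a common minimum coverage of 6, of 10, or without the 1% of positions with the highest coverage, the share of wt sites listed in Tdg cells was 57.9%, 49.4% and 53.1%. The median log2 ratio at shared sites was then 1.69, 1.10 and 2.15. Wt sites near span ends were 14.8% at a minimum of 6 and 19.5% at 10, and Tdg sites 12.1% at 10. Promoter CGs listed in wt cells were 0.0116% and 0.000554% at those minimums and 0.0415% in protein-coding genes alone. In Tdg cells they were 2.21% at a minimum of 10 and 2.51% in protein-coding genes alone.

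Gene calls depended on the minimum, the measure and the scaling. They moved by less than 1.5 times without chromosome X, without the top positions and without sites in several spans. Genes with a higher share, 134 as reported, were 1 at a minimum of 6 and 0 at 10. They were 0 by number of sites, 889 by median-ratio scaling, 3498 by scaling on shared positions, 2 within 1 kb of span ends and 15 at 4-fold. Genes with a lower share, 2108 as reported, were 953, 125, 171, 917, 15, 1061 and 1243 under the same settings. The median log2 ratio was -2.84 at a minimum of 6, -5.85 at 10 and -1.43 by number of sites. It was 0 by median-ratio scaling, 3.45 on shared positions, -1.45 without the filter and -2.54 near span ends. Windows with a higher share were 3, 0, 1 and 36 at a minimum of 6, at 10, by number of sites and at 4-fold. Windows with a lower share were 195 at a minimum of 10, 223 by number of sites and 780 at 4-fold. Lists with a higher share, 5 as reported, were 2 at a minimum of 6, 0 at 10, 1 by number of sites, 11 by median-ratio scaling, 12 on shared positions and 3 near span ends. Lists with a lower share were 0 by number of sites and under both other scalings, and 1 near span ends, against 2. The scalings move every gene by one constant, and the common minimums leave fewer wt sites. The cause of the other changes was not tested.

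Scaling on shared positions adds 4.75 to every log2 ratio, so it turns lower shares nearer to 0 than that by construction and says nothing about single genes. The values are Dnmt3b 2.09, Dnmt3l 2.95, Tet2 2.41, Gse1 3.70, Nfic 2.99, Arhgap23 3.38, Srcin1 3.62, Zmiz1 3.72, Nol4l 3.68, Zfp423 3.56, Etv4 2.22, Tbx1 3.71, Cbx8 2.23, Fosl1 3.11, Hand1 3.64, Tfap2c 2.14, Igf2 3.06, housekeeping list 3.60, neural list 4.25. The neural list was 0.81 by median-ratio scaling. Over the other settings, named genes with a call kept it in 200 of 257 values and lost it in 57, and those without one gained it in 40 of 267. Lists whose interval left out 0 kept that in 26 of 41 values, lost it in 14 and reversed in 1, and the others gained it in 10 of 30.

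The low coverage of the wt sites limits the comparison: 76.9% of its sites lie below a coverage of 6, and 70.0% of the compared genes rest on 1 wt site.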
